A study of Bos taurus with 12 samples.

Results

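TSC22D3 (ENSBTAG00000045877) encodes the glucocorticoid-induced leucine zipper protein, GILZ, and was followed here through the peripheral white blood cells (PWBCs) of beef heifers. It was taken by its Ensembl identifier as 1 of the 27607 genes in the count table, and its level, its rank among genes and the genes that moved with it were described over all 12 libraries. The heifers were Simmental-Angus crosses, and each gave 1 blood sample 2 days before artificial insemination (AI). Both groups went through the same 7-day CO-Synch + CIDR program, in which a progesterone device was withdrawn about 54 h before AI. The 6 fertile heifers, labelled Pregnant, conceived at the first AI, and the 6 subfertile heifers, labelled Open, had not conceived after AI and a further 60 days with bulls. Each group held 5 heifers with a reproductive tract score of 4 and 1 with a score of 5, LM1247 among the fertile and LM1246 among the subfertile.

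Glucocorticoids enter leukocytes, bind the glucocorticoid receptor (NR3C1) and bring it to the DNA, and TSC22D3 is among the genes that this receptor switches on directly. FOXO transcription factors also induce it, and other steroid receptors, among them the progesterone receptor, have been found to act on it in some cells. The GILZ protein binds NF-kB and AP-1 proteins and damps inflammatory gene expression in T cells, B cells and myeloid cells.

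Poly(A) RNA was sequenced, and the deposited values were read counts per gene that summed to between 14010736 and 21278761 per library, with 13012 genes kept after a filter on low counts. PWBCs are a mixture of cell types, so that in these bulk libraries fewer cells of a type and less RNA per cell cannot be told apart. Nothing separates the transcripts of the gene in such counts. The fertile library LM1330 stood apart from the rest, with the highest TSC22D3 level and a sum of 7 platelet marker genes of 10069.8 CPM (counts scaled to a common library size), against 548 to 3213 CPM in the other 11 libraries. Where a named gene no longer followed TSC22D3 without LM1330, the value without it is given. Markers of white blood cells were present in every library, at no less than 322 CPM for CD3E of T cells, 335 CPM for CD79A of B cells and 147 CPM for CTSS of monocytes, and the neutrophil genes CXCR2 and S100A9 summed to between 21.7 and 215 CPM.

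TSC22D3 was an abundant transcript in every heifer, and its level differed 5.09-fold between the lowest and the highest library. It was read 5424 times in the library with the fewest of its reads and 24994 times in the one with the most, so that counting error was small beside the spread between heifers. On TMM-scaled CPM, the fertile heifers LM1244, LM1286, LM1262, LM1247, LM1298 and LM1330 had 359, 567, 631, 742, 809 and 1510.2 CPM in that order. The subfertile heifers LM1259, LM1246, LM1251, LM1313, LM1283 and LM1265 had 297, 331, 497, 519, 552 and 785 CPM. The groups overlapped between 359 and 785 CPM. The lowest pair of levels was subfertile and the highest pair fertile, and the fertile LM1244 lay just above the lowest pair. Between neighbours in the order of levels, the 95% Poisson intervals overlapped for LM1251 and LM1313, for LM1283 and LM1286, and for LM1265 and LM1298, and these intervals cover counting error only. LM1330 was 1.87-fold above the next library.

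By number of reads, not corrected for gene length, TSC22D3 ranked between 69th of the 13012 genes kept, in LM1330, and 480th, in LM1259. In the other libraries its rank lay between 143 and 401. The gene was therefore among the more heavily read genes of the PWBCs in fertile and subfertile heifers alike.

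**Figure D1:**
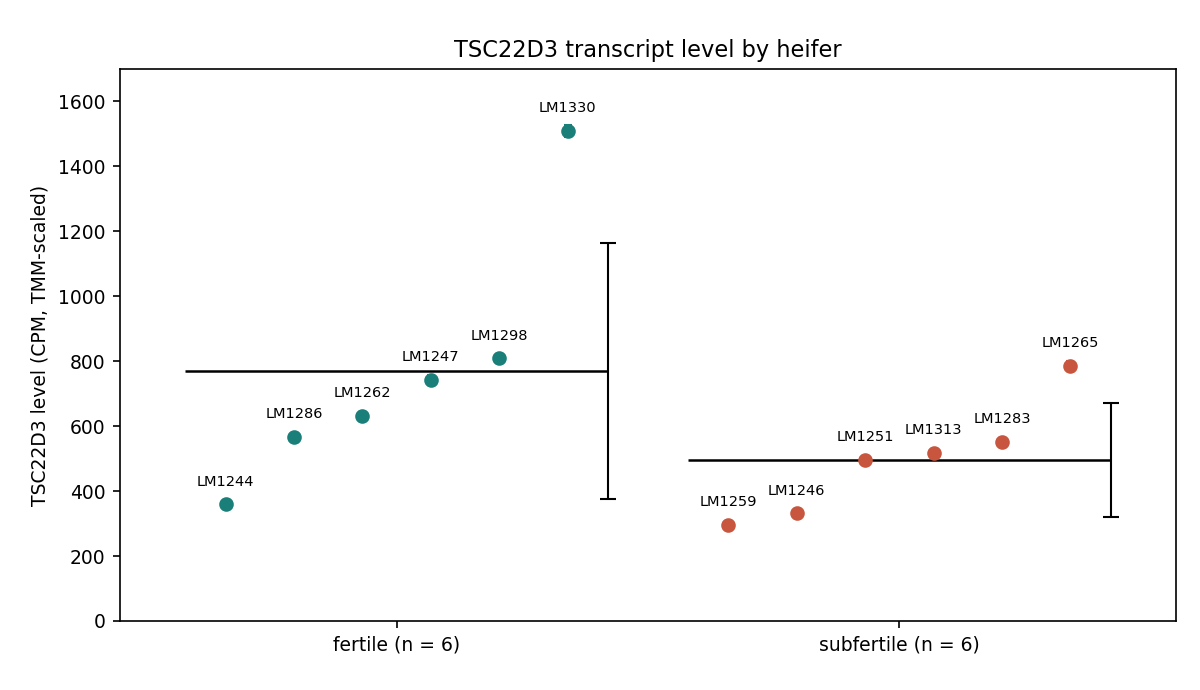
TSC22D3 level (y axis, TMM-scaled CPM from 0) in each of the 12 heifers, with fertile heifers on the left and subfertile heifers on the right. Error bars on points are 95% Poisson intervals, often smaller than the point, and the horizontal line and black bar give the group mean and SD (n = 6). LM1330 lies at 1510.2 CPM, and 5 of the 6 subfertile heifers lie below the fertile median of 687 CPM.

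The first comparison asked whether the transcript differed 2 days before AI between heifers that did and did not become pregnant. The 6 fertile heifers averaged 769.8 ± 395 CPM (SD), with a median of 687 CPM. The average of the 6 subfertile heifers was 497 ± 175 CPM (SD), with a median of 508 CPM. The log2 fold change (log2FC), subfertile against fertile, was -0.63 (standard error 0.31), with an unadjusted P of 0.0571 in edgeR's quasi-likelihood test and an adjusted P of 0.9998. The limits used in the study, an unadjusted P of 0.05 or less and an absolute log2FC of 0.5 or more, were thus not met in this fit. In it 182 of 13012 genes (1.40%) met them, and 0 had an adjusted P of 0.05 or less against 341 with an unadjusted P of 0.05 or less. The study itself, with DESeq2, counted TSC22D3 as a differentially expressed transcription factor. A two-sided exact permutation test of the mean log2 CPM gave a difference of -0.57, which 59 of the 462 splits of the heifers matched or exceeded (P = 0.128, where the smallest possible is 0.00216).

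The call turned on the tool and on single libraries. With the DESeq2 Wald test the log2FC was -0.64 and the unadjusted P 0.0284, with an adjusted P of 0.9998. Leaving out the fertile LM1330 brought the edgeR log2FC to -0.33 (unadjusted P = 0.204) and the average of the other 5 fertile heifers to 622 ± 174 CPM (SD). Leaving out the subfertile LM1265 took it to -0.81, where edgeR's unadjusted P was 0.0196. The limits were also met without LM1244 (edgeR's unadjusted P = 0.0152) or LM1286 (edgeR's unadjusted P = 0.0468).

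TSC22D3 was next used as a measure in its own right, to find which genes rose or fell with it across the heifers. In an edgeR fit with the log2 CPM of TSC22D3 as the only covariate, 1391 of the other 13011 genes followed it at an adjusted P of 0.05 or less. Of these, 828 (6.36% of the genes tested) rose with TSC22D3 and 563 (4.33%) fell as it rose, and 3594 genes had an unadjusted P of 0.05 or less. The slopes are log2 changes of a gene per unit of log2 TSC22D3, with a median of 0.54 among the risers and -0.37 among the fallers, and 207 genes rose more steeply than TSC22D3 itself. Of the 1391 followers, 538 have a gene name in the supplementary tables, the source of all names here. Those tables list genes that the study selected on these same heifers, so the genes named below are not an independent sample of the followers.

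By Pearson's r over 12 heifers, the gene most like TSC22D3 among all 13011 was SLC6A4, the serotonin transporter, through which platelets take up serotonin. Its level was 7.55, 16.0, 26.0, 32.6, 30.3 and 94.7 CPM in the fertile heifers, and 6.89, 7.27, 20.1, 15.2, 15.6 and 23.8 CPM in the subfertile heifers, each in the order of TSC22D3 levels given above. The same 3 heifers, LM1259, LM1246 and LM1244, were lowest for both genes and LM1330 was highest. Pearson's r of log2 CPM was 0.977 and Spearman's rho 0.923 over 12 heifers, with a slope of 1.63 (standard error 0.11, edgeR adjusted P = 2.31e-06). Within the groups r was 0.989 in fertile and 0.945 in subfertile heifers, and with each heifer left out in turn it was never under 0.956. Other measures ordered the genes differently: rho was higher for DPF2 (0.951), DBNDD1 and TUBB1 (both 0.944), and DAZAP2 and PDZK1IP1 (both 0.937). Without LM1330 and LM1259 r was 0.944 for SLC6A4 and 0.976 for TUBB1.

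The next named genes in the order of likeness were QSOX1, a sulfhydryl oxidase that forms disulfide bonds in secreted proteins (r = 0.968), DBNDD1 (0.956), WBP2, a WW domain binding coactivator (0.956), DPF2, a subunit of BAF chromatin remodelling complexes (0.955), and ZFAND3 (0.954). DAZAP2 (0.954), KIFC3, a kinesin motor (0.953), PDZK1IP1 (0.952) and TUBB1, the beta tubulin of platelets and megakaryocytes (0.951), completed the 10. These r values chose the genes and are given as a description. Their slopes differed in size: TUBB1 rose by 1.73 (standard error 0.15) and KIFC3 by 1.56 (0.13) per unit of TSC22D3, QSOX1 by 0.88 (0.07) and DAZAP2 by 0.55 (0.06), and DPF2 by 0.37 (0.05). DAZAP2 ran from 350.4 CPM in LM1246 to 917 CPM in LM1330, whereas TUBB1 ran from 349.6 to 7705 CPM between the same libraries. Between the fertility groups, 54 of the 1391 followers met the study's limits, 45 lower and 9 higher in subfertile heifers. Of all 13012 genes 182 (1.40%) did, 96 lower and 86 higher. Genes chosen for rising with TSC22D3 tend to share its lower average in subfertile heifers, so this lean follows from the choice of genes. Of the 10 genes just named, SLC6A4 (log2FC -1.22) and KIFC3 (-1.12) were among the lower ones. The 5 named genes whose lowest r over the sets of 11 heifers was highest were SLC6A4, DPF2, QSOX1, DBNDD1 and DAZAP2, all of them at 0.925 or above.

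**Figure D2:**
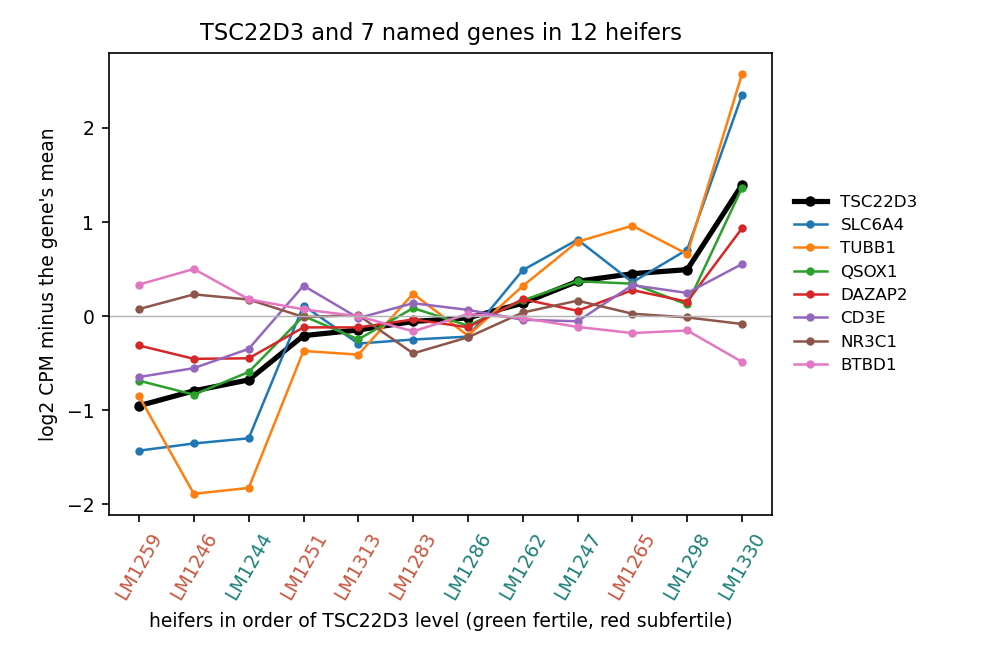
log2 CPM of TSC22D3 (black) and of 7 named genes, each minus its own mean (y axis), in the 12 heifers in order of TSC22D3 level (x axis, fertile labels green and subfertile labels red). SLC6A4 and TUBB1 climb more steeply than TSC22D3, DAZAP2 and CD3E less steeply, BTBD1 falls, and NR3C1 (r = -0.317) shows no such order.

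Among the genes that fell as TSC22D3 rose, the 5 named genes with the most negative r were BTBD1 (-0.938), WBP4, a spliceosome protein (-0.927), NUDT12, a Nudix hydrolase of NAD(H) (-0.918), NOL9, a polynucleotide kinase of ribosomal RNA processing (-0.916), and CHD1L, a chromatin remodeller (-0.913). BTBD1 had 59.6 CPM in LM1246 and 30.1 CPM in LM1330, with a slope of -0.38 (standard error 0.06), and the slopes of the other 4 lay between -0.43 and -0.29. LM1330 was the lowest library for all 5. With any 1 heifer left out the r of each stayed at -0.854 or below, and all 5 slopes still passed an adjusted P of 0.05 in edgeR. Without both LM1330 and LM1259 none of the 5 passed, and the smallest adjusted P in edgeR was 0.0555 (BTBD1), while the slopes were -0.43 for BTBD1 and between -0.33 and -0.27 for the other 4. Of genes without a name in those tables, ENSBTAG00000008105 had the highest r, 0.962, and ENSBTAG00000051479 the lowest, -0.950.

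How many genes followed TSC22D3 depended on a few libraries and on what else was in the fit. Without LM1330 there were 828, of which 607 were among the 1391 with the same sign, and the split moved to 421 rising and 407 falling. Without the subfertile LM1246 or LM1259 there were 617 and 813, and without the fertile LM1244 900. Without both LM1330 and LM1259, the pair farthest from the median TSC22D3 level, 210 were called, 180 of them shared with the full set. Of the 1391, 1389 kept the sign of their slope without LM1330 and 849 had a slope at least as large. Without both libraries these numbers were 1388 and 877. With fertility group as a second term 912 followed, 852 of them shared. Scaling by library size alone in place of TMM turned the balance to 483 rising and 712 falling. With the first principal component of all other genes as a second term, 0 genes passed, with 1213 at an unadjusted P of 0.05 or less in edgeR. In that fit 966 of the 1391 kept the sign of their slope and 224 had a slope at least as large, and the slope went from 1.63 to 1.44 for SLC6A4, from 0.37 to 0.40 for DPF2 and from 1.73 to 0.94 for TUBB1. That component holds 23.1% of the variance, and its r with TSC22D3 was 0.921 (permutation P = 0.00025, adjusted over 14 library measures 0.00117; rho = 0.811, P = 0.00234, adjusted 0.0109).

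**Figure D3:**
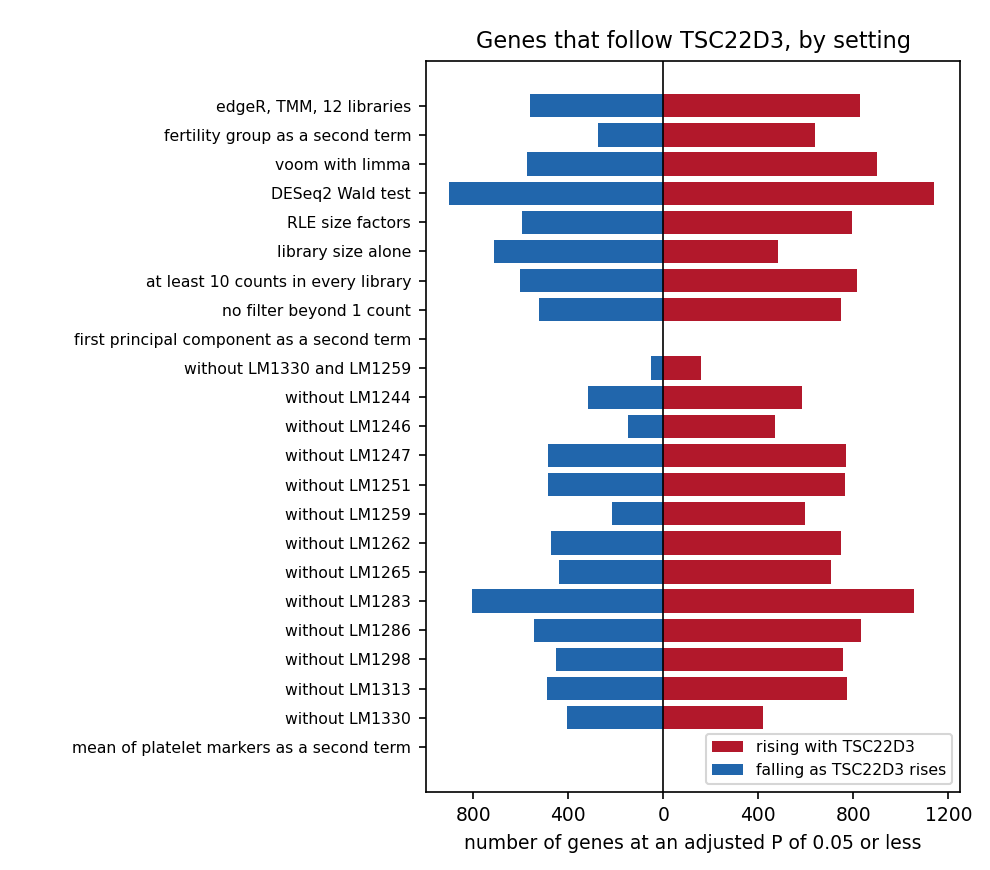
Number of genes that follow TSC22D3 at an adjusted P of 0.05 or less (x axis, rising to the right in red and falling to the left in blue) in each fit (y axis). The count is 1391 in the edgeR fit of 12 libraries, 828 without LM1330, 210 without LM1330 and LM1259, and 0 where the first principal component or the platelet marker mean is a second term.

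Named platelet markers were among the followers. Platelets are small blood cell fragments that carry RNA from megakaryocytes and can remain in white blood cell preparations. Of 12 platelet markers, 7 have a name in the tables, and all 7 rose with TSC22D3, beside 6.36% of all genes. They were TUBB1, the integrin subunits ITGB3 (r = 0.926) and ITGA2B (0.902) of the fibrinogen receptor, GP9 of the von Willebrand factor receptor (0.880), the adhesion molecule SELP (0.873), the thrombin receptor F2RL3 (0.822) and the ADP receptor P2RY1 (0.806). Without LM1330 P2RY1 did not pass (slope 0.74 against 0.80, edgeR adjusted P = 0.0728) and 6 of the 7 did. Without LM1330 and LM1259 only TUBB1 and ITGB3 passed, and the slopes of the others were 2.54 for GP9, 2.40 for F2RL3, 1.35 for SELP, 0.81 for P2RY1 and 0.63 for ITGA2B. The slope of GP9 was the steepest of the 7, at 2.12 (standard error 0.32), from 0.28 CPM in LM1246 to 31.2 CPM in LM1330. The marker sum was 559, 2500.5 and 10069.8 CPM as the lowest, median and highest fertile value and 548, 1465 and 3213 CPM in subfertile heifers.

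As a description over 12 heifers, the mean log2 CPM of the 7 markers had an r of 0.932 and a rho of 0.909 with TSC22D3. It was 0.988 in fertile and 0.832 in subfertile heifers, 0.881 without LM1330 and 0.888 without LM1330 and LM1246, the pair farthest from the median of the marker mean. TSC22D3 levels left gaps in their order, below LM1251 and below LM1330. Among the 8 heifers between these gaps, a narrower range of TSC22D3 that can by itself lower r, it was 0.777 for the marker mean, 0.933 for TUBB1 and 0.763 for ITGB3, but 0.235 for ITGA2B, 0.311 for GP9, 0.151 for SELP and 0.226 for P2RY1, with F2RL3 at 0.570. With the marker mean as a second term, a fit chosen after seeing the data in which both terms are correlated as above, 0 genes followed TSC22D3, with 1032 at an unadjusted P of 0.05 or less in edgeR. Of the 1391 followers, 1060 kept the sign of their slope there and 271 had a slope at least as large. The slope was 1.16 for SLC6A4 and 0.35 for DPF2, and it was -0.26 for CCR3. With the same term between the fertility groups the log2FC of TSC22D3 was -0.18 (standard error 0.13, edgeR unadjusted P = 0.202). In edgeR none of the 7 met the study's limits between the groups, with log2FC between -1.22 (GP9) and -0.34 (ITGA2B) and the smallest unadjusted P at 0.0545 (P2RY1). With DESeq2, P2RY1 (log2FC -0.63, unadjusted P = 0.0340) and F2RL3 (-1.16, unadjusted P = 0.0491) met them, and with voom none did. Their part in the level of TSC22D3 was not tested.

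**Figure D4:**
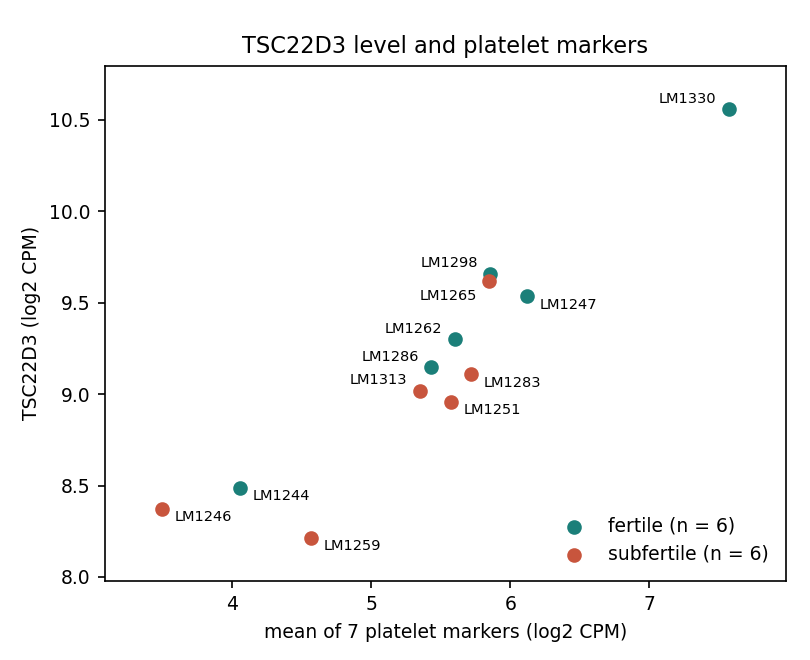
TSC22D3 level (y axis, log2 CPM) against the mean log2 CPM of 7 platelet markers (x axis) in 6 fertile (green) and 6 subfertile (red) heifers. LM1330 is highest on both axes, LM1244, LM1246 and LM1259 are lowest on both, and r over the 12 heifers is 0.932.

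Markers of other blood cells are given beside the 6.36% of all genes, and 375 of the other 2897 named genes, that rose with TSC22D3. Both named T cell markers of 9, CD3E, a chain of the T cell receptor complex, and CD2, an adhesion receptor, rose with it (r = 0.863 and 0.838). CD3E had 396 to 740 CPM in fertile heifers and 322 to 633 CPM in subfertile heifers. CCR3, a chemokine receptor of eosinophils and basophils and the only named marker of 10, rose with a slope of 1.43 (standard error 0.20), from 10.9 CPM in LM1244 to 207 CPM in LM1330. Without LM1330 its slope was 0.97 and did not pass (edgeR adjusted P = 0.0733). PRF1, the pore-forming perforin of cytotoxic lymphocytes, was the only riser among 4 named NK cell markers of 8, and MS4A7 the only one among 4 named monocyte markers of 9. Without LM1330 MS4A7 did not pass (edgeR adjusted P = 0.142), while CD3E, CD2 and PRF1 did. Without both LM1330 and LM1259 neither CD2 nor PRF1 passed. Neither of the 2 named B cell markers, the 2 neutrophil markers or the 1 erythroid marker passed with all libraries, though the erythroid marker EPB42 did without LM1244 (slope 1.14 against 0.81, edgeR adjusted P = 0.0187 against 0.0716). Within the groups r was 0.943 in fertile and 0.912 in subfertile heifers for CD3E, whose slope was 0.48 with all libraries and without LM1330 and LM1259, where it did not pass (edgeR adjusted P = 0.102). Over the narrower range of the 8 middle heifers r was 0.144 for CD3E and 0.135 for CCR3.

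The glucocorticoid pathway itself was taken in order from the receptor to its targets. NR3C1 did not follow TSC22D3: its level was 94.8, 112 and 125 CPM as the lowest, median and highest fertile value and 84.2, 112 and 130.0 CPM in subfertile heifers, with r = -0.317 (permutation P = 0.313) and rho = -0.469 (P = 0.130). HSP90AB1, a chaperone that holds the receptor ready for hormone, had r = -0.298 (P = 0.345) and rho = -0.126 (P = 0.698). BAG1, a co-chaperone of HSP70 that binds the receptor, rose with TSC22D3, with a slope of 0.31 (standard error 0.08, edgeR adjusted P = 0.0205). Its level was 38.6 to 54.3 CPM in 11 heifers and 82.1 CPM in LM1330, and without LM1330 its r of 0.757 fell to 0.462 and its slope did not pass (edgeR adjusted P = 0.423). These were the 3 named of 22 genes in the list of receptors, chaperones, coregulators and cortisol-converting enzymes, and neither FKBP5 nor the other 3 members of the TSC22 family are named in the tables.

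Of 30 other genes known to be induced by glucocorticoids, 10 are named, and 2 of them rose with TSC22D3 while 8 did not pass, where 6.36% of all genes and 375 of the other 2897 named genes rose. The risers were PIK3IP1, an inhibitor of PI3 kinase, with r = 0.824 and a slope of 0.41 (standard error 0.09, edgeR adjusted P = 0.0110), and DDIT4, an inhibitor of mTORC1 signalling, with r = 0.703 and a slope of 0.74 (0.20, adjusted P = 0.0282). DDIT4 had 23.1, 24.1 and 52.0 CPM as the lowest, median and highest fertile value and 17.9, 26.7 and 72.8 CPM in subfertile heifers, with the top value in LM1265, a heifer of high TSC22D3 level. PIK3IP1 had 63.5, 81.8 and 98.7 CPM in fertile and 48.5, 80.1 and 93.3 CPM in subfertile heifers. DDIT4 did not pass in edgeR without LM1330 (adjusted P = 0.0567), LM1244 (0.0542), LM1246 (0.0629) or LM1259 (0.0859), and PIK3IP1 did not pass without LM1259 (0.0533). The slopes in these fits were 0.89, 0.75, 0.77 and 0.70 for DDIT4 and 0.34 for PIK3IP1. With the platelet marker mean as a second term, a fit chosen after seeing the data with correlated terms, no gene passed. The slope there was 1.53 for DDIT4 (edgeR adjusted P = 0.577), 1.51 for CXCR4, 1.18 for FOXO3 and 0.66 for PDK4. It was 0.14 for PIK3IP1, 0.13 for SESN1, 0.02 for ZFP36 and 0.22 for NR3C1. Without that term it was 0.63 for CXCR4, 0.17 for FOXO3, -0.13 for PDK4, -0.09 for SESN1, 0.13 for ZFP36 and -0.09 for NR3C1. Over the 8 middle heifers r was 0.589 for DDIT4 and 0.148 for PIK3IP1. The chemokine receptor CXCR4 had r = 0.614 (permutation P = 0.0324) and rho = 0.699 (permutation P = 0.0144) and did not pass in the slope fit (adjusted P = 0.0933), though it did without LM1313 (0.0398). The other 7, ZFP36, CEBPD, BCL6, PDK4, SESN1, FOXO3 and TNFAIP3, had r between -0.284 and 0.396. The median r over the 10 was 0.255, beside 0.00819 over all genes tested, with quartiles of -0.385 and 0.402. Named genes rose more often than all genes, so all genes are not a like baseline for the 10. Without both LM1330 and LM1259 none of the 10 passed, with slopes of 0.89 for DDIT4 and 0.44 for PIK3IP1.

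The genes on which GILZ is known to act, and other stress-responsive genes, were taken next, beside the same 6.36% of all genes that rose. Of 18 inflammatory targets of NF-kB and AP-1, 4 are named and none passed in the slope fit: the chemokines CCL4 (r = 0.591) and CXCL8 (0.471), the cytokine IL1B (-0.397) and the NF-kB cofactor NFKBIZ (-0.481). Without LM1283 CCL4 did pass (edgeR adjusted P = 0.0497, against 0.0819 with all libraries). The only named gene of 13 partner proteins, FOXO3, did not pass (0.292). Of 16 FOXO targets 4 are named and PIK3IP1 alone rose. Of 21 immediate early genes 6 are named, and MAFF, a small MAF transcription factor, rose with r = 0.788 and a slope of 1.53 (standard error 0.27, adjusted P = 0.00232), with 2.03, 6.06 and 22.5 CPM as the lowest, median and highest fertile value and at most 3.47 CPM in subfertile heifers. Without LM1330 its r was 0.601 (permutation P = 0.0503) and its slope did not pass (edgeR adjusted P = 0.0818), and within the groups r was 0.920 in fertile and 0.198 in subfertile heifers. Between the fertility groups, 5 of the 45 named genes of all lists met the study's limits in edgeR, beside 1.40% of all genes and 150 of 2897 named genes, a set that holds the 45 and that the study selected on these heifers, and all 5 were lower in subfertile heifers: MAFF (log2FC -1.76), GZMB (-1.004), MS4A7 (-0.98), EPB42 (-0.96) and PAX5 (-0.51). Only MAFF belongs to a pathway list, and each had an adjusted P of 0.9998. With voom MAFF (log2FC -1.28, unadjusted P = 0.0608) and GZMB (-0.71, unadjusted P = 0.155) did not meet the limits and CCL4 (-0.95, unadjusted P = 0.0191) did, and with DESeq2 all 5 and CCL4 met them. The 5 became 11 without LM1244, 3 without LM1246 or LM1283, and 2 without LM1298 or LM1330. For these fits the share of all genes that met the limits was not counted, so the numbers have no background beside them.

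**Figure D5:**
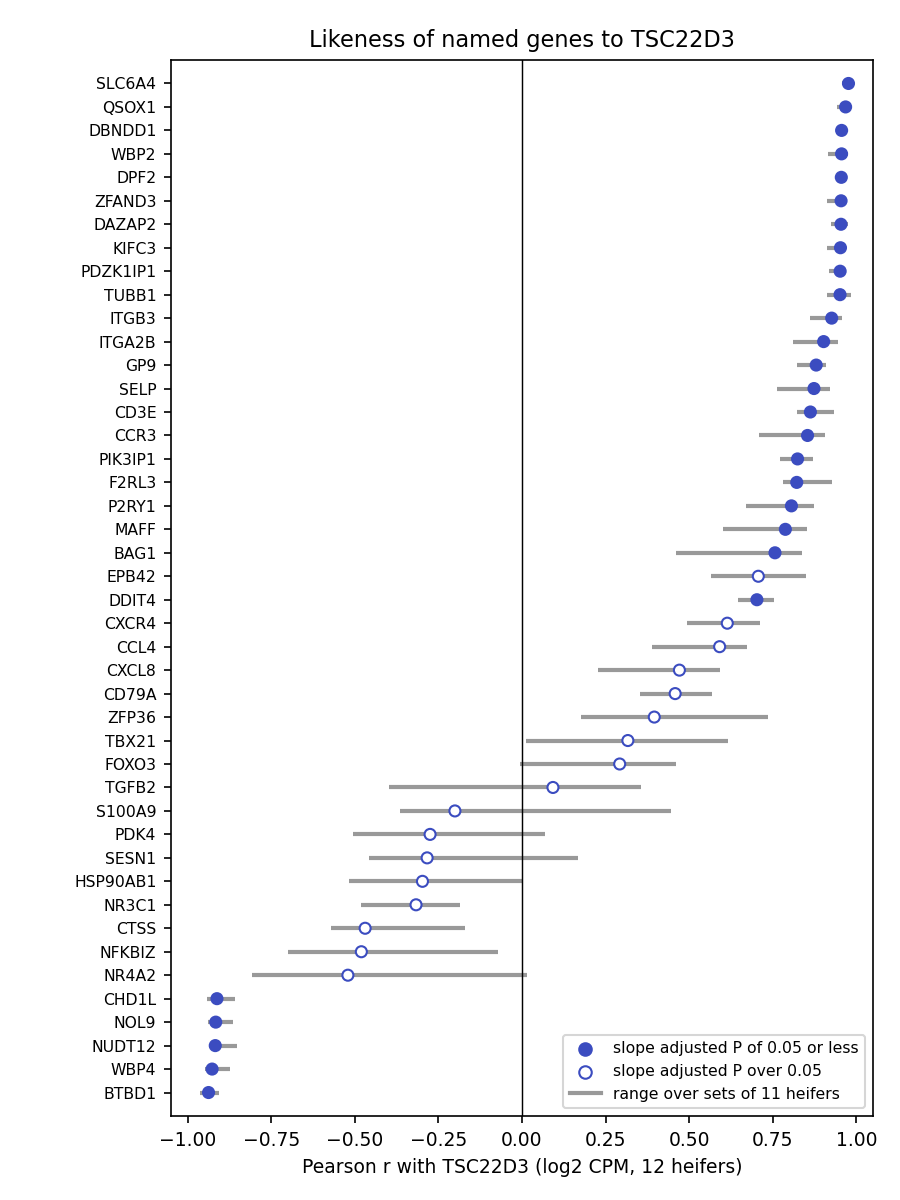
Pearson r with TSC22D3 over 12 heifers (x axis) for the 44 named genes (y axis), with grey bars for the range over the sets of 11 heifers and filled points for genes with a slope at an adjusted P of 0.05 or less. The 22 filled points on the right and 5 on the left follow TSC22D3, and the bars of TGFB2 (-0.397 to 0.355) and S100A9 (-0.364 to 0.447) cross 0.

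The last question was whether TSC22D3 was connected to other genes differently in the groups, by an absolute r of 0.95 on variance-stabilized counts within 6 heifers. The study set the same limit on r for pairs that a partial correlation method had first selected, a step not run here, so the counts below are of another kind than its networks. TSC22D3 had 238 connections in fertile heifers, 198 positive and 40 negative, or 1.83% of the genes tested. In subfertile heifers it had 183, 83 positive and 100 negative, or 1.41%. The difference of 55 was matched or exceeded in 385 of the 462 splits of the heifers (two-sided exact permutation test, P = 0.833). The groups shared 9 connections, 3.78% of the fertile and 4.92% of the subfertile ones, all 9 positive in both, and CTNS, DPF2, STRIP2, CLASP1 and DBNDD1 are those with a name. At an absolute r of 0.90 the counts were 614 and 688, with 82 shared, 81 of them with the same sign. With Spearman's rho in place of r they were 96 and 94, with 0 shared. Of the 238 fertile connections, 195 were also among the 1391 followers, as were 86 of the 183 subfertile ones. A name is given to 171 of the fertile and 30 of the subfertile connections.

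Slopes on TSC22D3 were also compared between the groups gene by gene. The difference of slopes passed an adjusted P of 0.05 in edgeR for 1 gene, with 1146 at an unadjusted P of 0.05 or less. The gene was TGFB2, a transforming growth factor beta ligand, and it was named after its values were seen. It had 1.27, 1.19, 4.73, 3.61, 4.96 and 13.9 CPM in the fertile heifers and 10.8, 7.78, 3.21, 2.58, 1.85 and 0.78 CPM in the subfertile heifers, each in order of rising TSC22D3. Its level thus went up with TSC22D3 in most fertile heifers and down at every step in subfertile heifers, with r = 0.908 and r = -0.996, given as a description because the gene was chosen for this difference. The difference of slopes, subfertile minus fertile, was -4.38 (adjusted P = 0.00799), and it did not pass without LM1330, where the smallest adjusted P over all genes was 0.715, without LM1259 (0.160) or without LM1265 (0.0840).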

How the data were processed

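RNA from the PWBCs of 12 heifers was extracted in a single batch and sequenced as strand-specific poly(A) libraries in a single run over a pair of lanes, and the lane of each library was not used here. The authors mapped the reads with STAR 2.7.5 to the ARS-UCD assembly and deposited the raw counts per Ensembl gene, without normalization; the strand setting of the counts is not given in the sources used here. Low genes were removed with filterByExpr (minimum count 10, fertility groups supplied). After TMM scaling, each comparison across genes used edgeR 4.0.16 (quasi-likelihood F test, R 4.3.3), with Benjamini-Hochberg adjustment over all genes tested. The slope fit took the log2 CPM of TSC22D3 (prior count 2) as covariate. DESeq2 1.42.0 and voom of limma 3.58.1 were alternatives, with other scalings and filters, the reproductive tract score and each library left out. Permutation P for r and rho over 12 heifers used 100000 resamples. On simulated data the slope fit recovered 79% of 100 genes with a slope of 1 and 96% of 100 with a slope of 2 among 13011, with 7 false calls, and the group fit recovered 49% of 100 genes with a log2 change of 1 and 91% of 100 with a change of 2, with 3 false calls.

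Names were available for 2898 of the genes kept, from the supplementary tables. Some list members are not reported here. The members and lists were chosen with earlier results of these data known. The genes reported are NR3C1 and the TSC22 family, any pathway list member that met the study's limits between groups, the 3 members of each pathway list with the largest absolute r, the 10 highest and 5 lowest r, the 5 highest minimum r over sets of 11 heifers, and the most abundant marker of each cell type. The other platelet markers, and other list members given with a value, were added after their values were seen.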

Additional observations from a re-analysis of the deposited data

Results flagged for a closer look

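Among 45 genes, TSC22D3 and the named genes, in the 2 groups, 1 of 90 sets of 6 heifers had a value far from the others by Dixon's ratio, where chance alone gives about 1 in 20. BAG1, the co-chaperone that rose with TSC22D3, was at 6.36 log2 CPM in the fertile heifer LM1330 and at 5.77 in the next fertile heifer, a gap of 0.740 of the group's range, past the critical value for 6 samples. TSC22D3 itself, at 1510.2 CPM in LM1330, had a gap of 0.435 of the fertile range on log2 CPM and 0.609 on CPM, both under the critical value.

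TGFB2 had different slopes on TSC22D3 in the groups, with a difference of -4.38, subfertile minus fertile, in edgeR's interaction test (adjusted P = 0.00799). The cause was not tested.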

How the results depend on the processing

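No paired analysis was possible because the groups hold different heifers with 1 sample each, and the labels give no pairs. The log2FC of TSC22D3 was negative in every fit run and met the study's limits with DESeq2 (-0.64), library size alone (-0.63) and no filter beyond 1 count (-0.63). With each library left out in turn it lay between -0.81 and -0.33. The 5 list members called between groups became 8 with DESeq2, 3 with the reproductive tract score in the model, 2 with the platelet marker mean in the model, and 2 to 11 with each library left out. In these alternative fits the share of all genes called was not counted, so the change in number is a description only. The 1391 followers of TSC22D3 became 912 with fertility group as a second term, 210 without LM1330 and LM1259, and 0 with the first principal component or the platelet marker mean as a second term, where 224 and 271 of the 1391 slopes were at least as large as before, and numbered 617 to 1862 over the fits that each dropped a library. The test of a difference of slopes called 0 or 1 gene over those sets. The difference in connections turned to -74 at an absolute r of 0.90, and ran from -326 to 311 with 1 library left out of each group.

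Of 674 alternatives for 58 correlations, 637 kept their sign and side of P = 0.05, and 12 changed sign. Without LM1330 and LM1259, r was 0.359 for HSP90AB1, -0.183 for FOXO3, 0.280 for SESN1, 0.294 for S100A9 and -0.144 for TGFB2. With each library left out it ran from -0.00596 to 0.460 for FOXO3, -0.458 to 0.168 for SESN1, -0.506 to 0.0676 for PDK4, -0.808 to 0.0151 for NR4A2, -0.364 to 0.447 for S100A9 and -0.397 to 0.355 for TGFB2. The causes were not tested. Followers are read from 12 heifers with 14010736 or more reads counted in genes per library, and members without a name were not analysed here.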

Other observations

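The mean log2 CPM of the 4 named monocyte markers had r = -0.808 with TSC22D3 in fertile heifers and r = 0.601 in subfertile heifers, and -0.116 over all 12 (permutation P = 0.725, adjusted over 14 library measures 0.840; rho = -0.0769, P = 0.819). For the 2 neutrophil markers the values were -0.776 in fertile heifers, 0.738 in subfertile heifers and -0.319 over all 12 (permutation P = 0.310, adjusted 0.483; rho = -0.0490, P = 0.885). Without LM1330 the values over the other 11 heifers were positive, 0.217 for monocyte markers (permutation P = 0.515) and 0.307 for neutrophil markers (permutation P = 0.349). Single monocyte markers did not share one pattern, with r = 0.815 for MS4A7 over 12 heifers and r = -0.794 in fertile and 0.0290 in subfertile heifers for CTSS. The difference between the groups was not tested for the marker means, and the direction was noticed in the values. Gene by gene, the difference of slopes did not pass in edgeR for any of the 6 markers, with adjusted P of 0.492 for CD68, VCAN and S100A9, 0.499 for CXCR2, 0.646 for CTSS and 0.987 for MS4A7, though unadjusted P was 0.00162 for VCAN, 0.00228 for CD68, 0.0103 for S100A9 and 0.0183 for CXCR2.

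Libraries with more TSC22D3 had fewer genes with at least 1 count, with r = -0.619 (permutation P = 0.0291, adjusted 0.0622; rho = -0.497, P = 0.104), which did not pass after adjustment. The library total had r = -0.0909 (P = 0.780) and rho = -0.0140 (P = 0.974). The share of the most abundant gene had r = 0.127 over 12 heifers (P = 0.704) and 0.665 without LM1330 (P = 0.0317).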
